A study of Mus musculus with 4 samples.

Results

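The chitinase-like proteins Chil3 and Chil1 were examined in lung RNA of allergen-challenged mice. The members are all probes whose platform annotation gives Chil3 (older name Chi3l3) or Chil1 (older name Chi3l1) as the only gene. There were 2 such probes among 20205: probe 4089 for Chil3 and probe 18423 for Chil1, each with a value on all 4 arrays, so the probes of a gene could not be set against each other. The arrays hybridised lung RNA with 2 dyes and gave 1 ratio a probe. Challenged BALB/cJ mice had received ovalbumin (an egg white allergen) first for sensitization and then as challenge, and had been kept either in UCP air (an abbreviation the labels do not explain; 2 arrays) or in particle-free air (2 arrays). On each array the other dye carried the pooled lung RNA of 6 control animals of that air that were not sensitized. The dyes were swapped within each air, array 1 carrying the challenged lung in Cy5 and array 2 carrying it in Cy3. The sources used here give no age or sex of the animals and no timing or dose of the challenge, nor do they state if both arrays of an air came from the same animals. P-values thus rest on the spread of arrays alone, and that spread may be technical. Sensitization and challenge cannot be told apart, because no animals here were sensitized without challenge.

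Chitinase-like proteins share the barrel fold of the chitinases that cleave chitin, the polymer of insect and fungal walls, but have lost the catalytic residue and do not cleave it. Chil3, also called Ym1, is a secreted lectin of mouse alveolar and alternatively activated macrophages and of neutrophils. It is induced by the type 2 cytokines IL-4 and IL-13 through the transcription factor STAT6, and its protein forms crystals in inflamed mouse lung. Chil1, the mouse counterpart of human CHI3L1, is secreted by macrophages, neutrophils and airway epithelium and is known in mice for prolonging the survival of inflammatory cells in type 2 inflammation.

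Promoter sequences are shown for both genes because both lay above their controls on all arrays, and for Chil4 because its gene is a close copy of Chil3. They run from 250 bases before the annotated start to 20 bases after it, 5′ to 3′ on the gene's strand, as given by RefSeq for GRCm38.p6. Chil3 and Chil4 lie on the minus strand at chr3:106167545-106167814 and chr3:106219460-106219729, and Chil1 on the plus strand at chr1:134181906-134182175. Capitals mark TTCNNNGAA, a spacing bound by several STAT factors, AGGAAG, the core bound by PU.1 and other ETS factors, and the TATA box TATAAA, all searched on both strands.
Chil3: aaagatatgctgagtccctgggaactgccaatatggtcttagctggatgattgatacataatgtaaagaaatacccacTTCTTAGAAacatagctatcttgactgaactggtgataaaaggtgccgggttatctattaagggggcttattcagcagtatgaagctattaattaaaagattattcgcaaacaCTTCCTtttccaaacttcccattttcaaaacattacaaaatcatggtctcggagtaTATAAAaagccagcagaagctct
Chil4: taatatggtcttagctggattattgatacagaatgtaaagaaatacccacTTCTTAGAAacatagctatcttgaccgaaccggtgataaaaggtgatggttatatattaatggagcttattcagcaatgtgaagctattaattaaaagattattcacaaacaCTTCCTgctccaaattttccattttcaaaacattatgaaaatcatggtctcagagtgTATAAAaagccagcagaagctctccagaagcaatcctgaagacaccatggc
Chil1: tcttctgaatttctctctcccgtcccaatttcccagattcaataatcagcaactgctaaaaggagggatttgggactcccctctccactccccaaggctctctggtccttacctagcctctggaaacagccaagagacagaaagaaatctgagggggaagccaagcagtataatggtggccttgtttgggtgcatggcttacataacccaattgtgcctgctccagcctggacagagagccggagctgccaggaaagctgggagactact
Aligned to each other, the Chil3 and Chil4 windows shared 221 of 241 aligned bases (91.7%). Both held 1 match each to the STAT spacing, to AGGAAG (read as CTTCCT on this strand) and to the TATA box, which in Chil3 spans the annotated start. The Chil1 window held none of these. Over the 32851 RefSeq windows of this length, 7.58% held TTCNNNGAA, 31.8% AGGAAG and 12.9% TATAAA. The wider spacing preferred by STAT6, with 4 bases between TTC and GAA, was found in 6.3% of windows and in none of the windows shown, and TTNNGNAA, a loose C/EBP motif, in 38.5%, with 3 matches in Chil3, 3 in Chil4 and 1 in Chil1. The matches describe letters in a window and do not show binding. No probe is named for Chil4 in the annotation, so Chil4 was not analysed here, and whether its RNA binds the Chil3 probe was not tested.

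Chil3 had the largest averaged change of all probes, also by absolute size, where the lowest probe, without a gene name, reached -5.51 through 1 capped value. Its log2 ratio of challenged lung over control pool was 5.83 and 5.72 on the UCP arrays and 5.45 and 5.32 on the particle-free arrays, that is 56.9-fold and 52.7-fold in UCP air and 43.6-fold and 39.9-fold in particle-free air. All arrays were high, and the spread over them was small beside the ratio. The mean of 5.58 ± 0.24 (SD, n = 4, standard error of the fit 0.14) corresponds to 47.8-fold, with a 95% interval from 5.19 to 5.97, and it passed limma's moderated test of both airs together (adjusted p = 0.021, 4 of 4 arrays higher). Of 18160 probes with a value on every array, 0.00551% passed in the higher and 0% in the lower direction, so Chil3 was the 1 call. At an unadjusted p under 0.05 there were 2551 probes.

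The direction of Chil3 is not itself a finding. The deposited values run the same way on all arrays, but their overall sign is only likely. The basis is the common practice of dividing Cy5 by Cy3 and a few genes whose transcripts are well known in allergic mouse lung, Chil3 among them. The call did not hold in 4 alternatives: the limma adjusted p was 0.123 without array 2 of UCP air, 0.221 with the replicate number as a block, 0.0801 after centring and scaling of the arrays, and 0.317 with 1 mean value an air, while the ratio stayed between 5.24 and 5.66 in every setting tried.

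**Figure D1:**
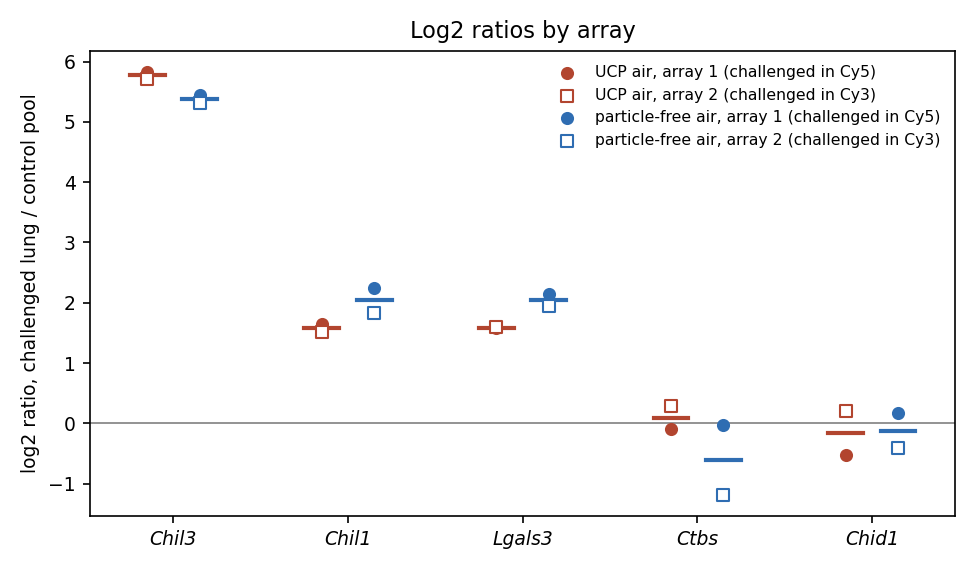
Log2 ratio of challenged lung over control pool for Chil3, Chil1, Lgals3, Ctbs and Chid1, with the 2 arrays of UCP air (left of each pair) and of particle-free air as points and their mean as a bar. Chil3 lies between 5.32 and 5.83, Chil1 and Lgals3 between 1.51 and 2.25, and Ctbs and Chid1 on both sides of 0.

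By air, Chil3 averaged 5.78 ± 0.08 in UCP air and 5.38 ± 0.09 in particle-free air (SD, n = 2 each). It had the smallest p of all probes in either air, with limma adjusted p = 0.0808 in UCP air and 0.109 in particle-free air. In both airs 0% of probes passed, beside 1535 at an unadjusted p under 0.05 in UCP air and 1895 in particle-free air. Another fit averaged the probes of a gene and left out probes without a gene name. This reduces the number of tests and also changes the spread that limma estimates. Chil3 then passed in each air (limma adjusted p = 0.0233 in UCP air and 0.0316 in particle-free air). In several other settings it passed in neither. With each air fitted alone, the limma adjusted p was 0.286 in UCP air and 0.709 in particle-free air. After centring and scaling of the arrays it was 0.137 in UCP air and 0.296 in particle-free air.

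Within the array, Chil3 ranked 12 of 18160 probes on array 1 and 17 on array 2 of UCP air, and 23 on array 1 and 12 on array 2 of particle-free air. On the arrays with challenged lung in Cy5, 10 probes in UCP air and 14 in particle-free air stood above it on a plateau where the ratio had been capped. No probe was above Chil3 on every array. Its residual SD within airs was 0.084, and 4.28% of probes had a smaller one, against a median of 0.373. This small spread holds for the values as deposited or centred (0.081); it was 0.67 after centring and scaling and 0.377 with the array constant removed.

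**Figure D2:**
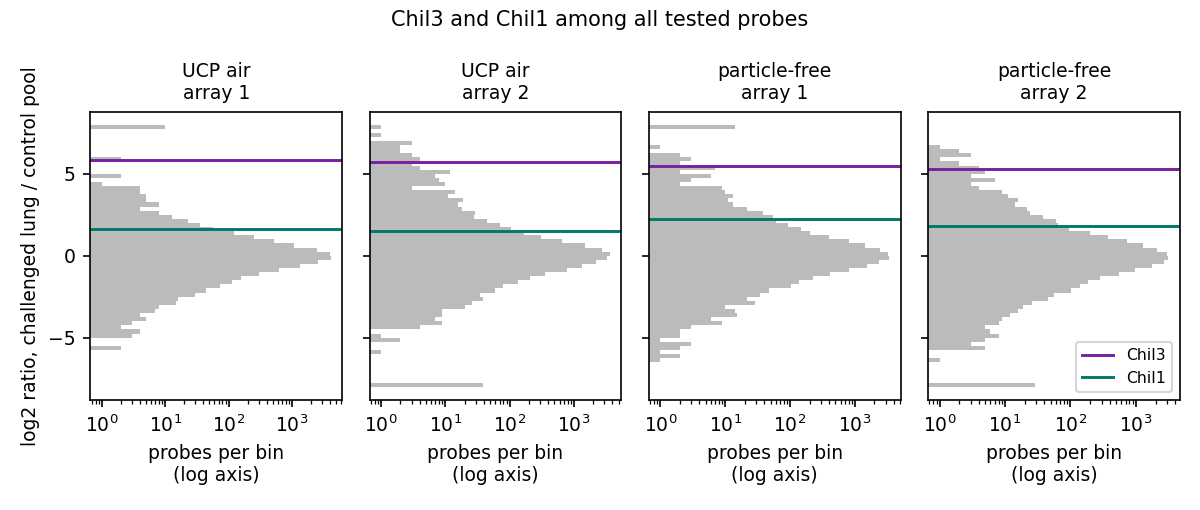
Number of probes (log axis) by log2 ratio on each array, UCP air on the left, with lines at Chil3 and Chil1; values beyond 8 in either direction are drawn at the edge. Chil3 lies in the sparse upper tail of every array. Chil1 lies lower in the upper tail, at percentiles from 97.73 (array 2 of UCP air) to 99.24 (array 1 of UCP air).

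Chil1 had a smaller ratio that did not pass the test. It lay at 1.65 and 1.51 on the UCP arrays and at 2.25 and 1.83 on the particle-free arrays, that is 3.14-fold and 2.84-fold in UCP air and 4.75-fold and 3.55-fold in particle-free air. All values were above 0. The mean was 1.81 ± 0.32 (SD, n = 4), 3.51-fold, with a 95% interval from 1.38 to 2.24, and the limma adjusted p was 0.0863, the 47th smallest p of 18160 probes. By air it averaged 1.58 ± 0.10 in UCP air and 2.04 ± 0.30 in particle-free air (SD, n = 2 each), with limma adjusted p = 0.230 in UCP air and 0.227 in particle-free air.

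Among named genes, 40 of 9153 had a larger averaged ratio than Chil1, and 6 were above it on every array: Ccl8, Ccl9, Chil3, Ctsk, Saa3 and Slc26a4. Both chitinase-like genes were at least 1.5-fold higher on all arrays, which 1.13% of probes were (206 of 18160), while 1.2% were at least 1.5-fold lower on all. Above 0 on all arrays were 12.7% of probes and below 0 on all were 13.6%. By absolute averaged ratio Chil1 ranked 193 of 18160 probes. The residual SD of Chil1 was 0.222, and 25.4% of probes had a smaller one.

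**Figure D3:**
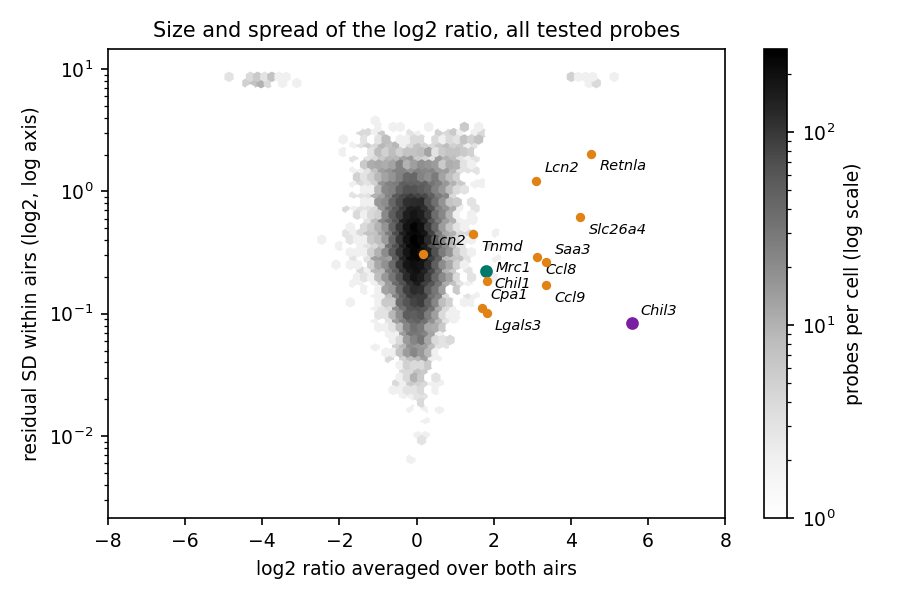
Residual SD within airs (log axis) against the log2 ratio averaged over both airs for all 18160 tested probes, shaded by their number, with Chil3, Chil1 and the genes nearest to each marked. Chil3 lies furthest to the right and has a residual SD of 0.084 in the values as deposited, which is larger under other scalings (0.67 after centring and scaling).

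The ratio of Chil3 exceeded that of Chil1 on every array, by 4.18 and 4.21 on the UCP arrays and by 3.20 and 3.49 on the particle-free arrays. The mean excess was 3.77 ± 0.51 (SD, n = 4), so that the fold change of Chil3 was 13.6 times that of Chil1. An exact sign-flip test over the arrays gave p = 0.125 (two-sided), the smallest that 4 arrays allow. A log2 ratio says nothing of the level of either transcript, so this compares changes and not amounts. Because any offset of an array cancels in this difference, it was also unaffected by centring. It averaged 4.20 ± 0.03 in UCP air and 3.34 ± 0.21 in particle-free air (SD, n = 2 each), a difference of 0.85 between airs, which was not tested. That value combines the differences of both genes between airs given below. The arrays of the airs did not overlap in it, which is common with 2 arrays an air. Among single probes, 17.7% had both UCP arrays above both particle-free arrays and 14.6% had them below. The share for differences of 2 genes was not worked out.

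The next question was whether the airs differed. Chil3 was higher in UCP air by 0.39 on the log2 scale, 1.31-fold, with a 95% interval from -0.38 to 1.17 (limma adjusted p = 0.984). Chil1 differed by -0.46, with an interval from -1.32 to 0.40 (limma adjusted p = 0.984). Neither difference passed, and neither did any other probe (0%, with 722 at an unadjusted p under 0.05 and a smallest adjusted p of 0.690). The arrays of the airs did not overlap for either gene, but 17.7% of all probes had both UCP arrays above both particle-free arrays, as Chil3 did, and 14.6% had them below, as Chil1 did. The intervals leave room for differences of more than 2-fold, upward for Chil3 and downward for Chil1.

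The orders of the airs were the same after centring, with differences of 0.35 for Chil3 and -0.50 for Chil1, but not in every setting. After centring and scaling of each array to a common spread, the difference was 1.44 for Chil3 and -0.15 for Chil1, and the airs overlapped for Chil1. With the constant that each array's values carry removed, a setting added after the data were seen in which the arrays shift against each other by more than either difference, it was 0.24 for Chil3, where the airs then overlapped, and -0.61 for Chil1.

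**Figure D4:**
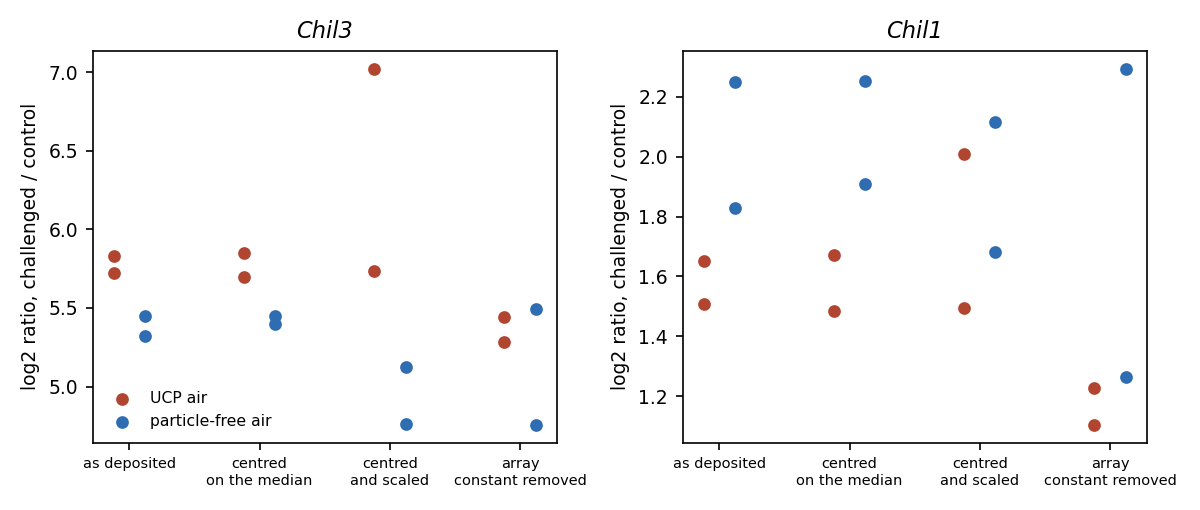
Log2 ratios of Chil3 and Chil1 on the arrays of UCP air (left of each pair) and particle-free air under different scalings; the axes do not start at 0. The airs are apart for both genes as deposited and after centring, but overlap for Chil1 after scaling and for Chil3 with the array constant removed.

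Transcripts typical of liver and heart had unequal ratios in the airs, although none passed the test of the difference by probe. The 13 measured genes of liver-made plasma proteins, of 15 listed, had a median log2 ratio of 0.38 in UCP air and 2.97 in particle-free air. The 10 measured heart muscle genes, of 12 listed, had a median of -2.23 in UCP air and 0.01 in particle-free air. Alb (albumin) lay at -0.53 and 0.81 on the UCP arrays and at 4.75 and 4.46 on the particle-free arrays. Hpx, which carries heme, lay at 1.20 and 0.48 in UCP air and at 3.83 and 3.50 in particle-free air, and the antiproteases Serpina1d and Serpina1e averaged 1.95 and 1.93 over all arrays. Nppa, the atrial natriuretic peptide, lay at -5.72 and -5.91 in UCP air and at 0.38 and -0.17 in particle-free air. The atrial myosin light chains Myl4 and Myl7 averaged -1.75 and -1.74, and the cardiac troponin Tnnt2 -1.39. Not all listed genes followed Alb or Nppa. The heart gene Ckm went the other way, at 0.30 and 0.31 in UCP air and at -0.58 and -0.81 in particle-free air. The arrays of the airs overlapped for the heart gene Actc1 and for the liver genes Fga, Fgg, Apoa1 and Apoa2. For the liver genes, 8 of 13 were above 0 and 0 below 0 on all arrays. For the heart genes, 0 of 10 were above and 2 below. Of all 9153 named genes, 1301 were above and 1291 below 0 on all arrays, with medians of 0.002 in UCP air and -0.018 in particle-free air. The values are ratios, so no level of these markers can be given, and their part in the differences of Chil3 and Chil1 between airs was not tested.

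The other members of the chitinase family that could be measured did not share the pattern. Of 8 genes listed, 2 had a named probe. Ctbs, a lysosomal enzyme that trims the chitobiose core of glycoproteins, lay at -0.09 and 0.28 in UCP air and at -0.03 and -1.18 in particle-free air. Chid1, a chitinase-domain protein that binds the scavenger receptor stabilin, lay at -0.53 and 0.21 in UCP air and at 0.17 and -0.41 in particle-free air. Both scattered around 0, with means of -0.26 ± 0.64 and -0.14 ± 0.38 (SD, n = 4 each). The active chitinases Chia1 and Chit1, the chitinase-like genes Chil4, Chil5 and Chil6, and the oviduct glycoprotein Ovgp1 were not analysed here.

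Reported receptors and partners of Chil1 came next, 5 of 7 measured. Lgals3 (galectin-3), a lectin of macrophages reported to bind CHI3L1 in human cells, lay at 1.59 and 1.59 in UCP air and at 2.15 and 1.95 in particle-free air. Its values, like those of Chil1, were lower on both UCP arrays than on both particle-free arrays, as were those of 14.6% of all probes. The others lay closer to 0: Lgals3bp, a secreted ligand of galectin-3, averaged 0.45 ± 0.30, the hyaluronan receptor Cd44 0.25 ± 0.53, the coreceptor Tmem219 0.06 ± 0.64 and the proteoglycan Sdc1 -0.04 ± 0.15 (SD, n = 4 each). Of these 5 genes 0 passed the test and 1 was at least 1.5-fold higher on all arrays, as were 106 of all 9153 named genes. The median of the 5 was 0.25, against -0.01 over all named genes. Il13ra2 and Ptgdr2 were not analysed here.

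Lgals3 was also the named gene nearest to Chil1 by its values, at a Euclidean distance of 0.19 over the 4 arrays among 9152 genes compared. The next were Cpa1, a pancreatic carboxypeptidase, at 0.60, the macrophage mannose receptor Mrc1 at 0.75, the iron-trapping lipocalin Lcn2 at 0.79 and the tendon protein Tnmd at 0.80. The probes of Lcn2 disagreed, with averaged log2 ratios of 0.17 and 3.10. No gene was as near to Chil3, which had the largest averaged ratio of all named genes. Few genes lie at that end of the scale, so larger distances there do not set Chil3 apart from Chil1. The nearest were Slc26a4, an anion exchanger of mucus-producing epithelium, at 2.86, the macrophage product Retnla at 4.03, the chemokine Ccl9 at 4.49, Saa3, of the acute phase response, at 4.65 and the chemokine Ccl8 at 4.96. All 5 had a lower mean than Chil3, as every other named gene did, from 4.53 for Retnla down to 3.13 for Ccl8. Retnla matched Chil3 closely on both UCP arrays (5.97 and 5.49) and on array 1 of particle-free air (5.34) but lay at 1.30 on array 2. With 4 arrays that share their airs and dyes, these distances are a description.

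Upstream of Chil3, genes of type 2 cytokine signalling could be followed only in part, with 6 of 21 measured on all arrays. Their median was -0.04, 0 passed the test and 1 was above 0 on all arrays, beside 1301 of all 9153 named genes. That gene was Irf4, a transcription factor of alternatively activated macrophages, at 0.58 and 0.55 in UCP air and 0.80 and 0.15 in particle-free air. The epithelial cytokine Tslp scattered from -2.18 to 0.83, and the kinases Jak1 and Jak3 averaged -0.28 and -0.06. Il4 had a missing value on at least 1 array and stayed out of the tests.

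Other genes of the STAT6 response in macrophages had a median of 1.03 (11 of 18 measured), against -0.01 over all named genes. Of these, 8 were above 0 and 6 at least 1.5-fold higher on all arrays, beside 1301 and 106 of all 9153 named genes. The test was passed by 0, and 1 (Klf4, averaging -0.815) was below 0 on all arrays, beside 1291 of 9153. Cdh1 and Socs1 averaged 0.07 and 0.06. Arg1, the arginase of alternatively activated macrophages, averaged 1.39 ± 0.18, Mrc1 1.82 ± 0.22 and Ccl17, a chemokine for type 2 helper T cells, 1.95 ± 0.85 (SD, n = 4 each), all well under Chil3. Retnla and Arg1, like Chil3, belong to the genes on which the overall sign rests.

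Markers of cells that can make Chil3 or Chil1 are given next; none could exceed Chil3, which had the largest averaged ratio of all named genes. Alveolar macrophage markers had a median of -0.36 (7 of 17 measured). On all arrays 2 were above and 2 below 0, beside 1301 and 1291 of all 9153 named genes. The highest was Mrc1, at 1.82 ± 0.22, the 1 gene at least 1.5-fold higher on all arrays. The scavenger receptor Marco averaged -0.36 ± 0.36 and the lipid carrier Fabp4, which fat also makes, -1.55 ± 0.60 (SD, n = 4 each). Fabp1, which liver also makes, lay at -0.51 and -0.70 in UCP air and at 2.48 and 2.28 in particle-free air, and F7, another liver product, at 0.52 and 0.86 in UCP air and at 1.47 and 2.02 in particle-free air. General macrophage markers had a median of 0.31 (6 of 14 measured). The complement components C1qa and C1qc averaged 1.09 and 0.78, but C1qb averaged -0.11 and lay on both sides of 0. The lipoprotein Apoe averaged 0.39 and the lysozyme Lyz2 -0.34.

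Neutrophil markers had a median of 0.35 (11 of 17 measured), with 5 above 0 and 3 at least 1.5-fold higher on all arrays, beside the same 1301 and 106 of 9153. The granule protein Ngp lay at 1.01 and 1.13 in UCP air and at 1.41 and 1.79 in particle-free air. Camp, an antimicrobial peptide of the same granules, lay at 0.91 and 0.67 in UCP air and at 1.60 and 1.57 in particle-free air. Both were lower on the UCP arrays, as were 14.6% of all probes. The calcium-binding S100a9 lay the other way, as did 17.7% of all probes, at 0.89 and 0.28 in UCP air and at 0.13 and 0.11 in particle-free air. Its partner S100a8, Lcn2, Mpo and Elane overlapped between the airs. Defining granule enzymes lay nearer 0, with Mpo at 0.19 ± 0.81 and Elane at 0.43 ± 0.94 (SD, n = 4 each). The remaining measured genes Ltf (lactoferrin), Cebpe, Mmp9 and Prtn3 averaged -0.08, -0.08, 0.15 and 0.14, so the granule genes did not rise as a set.

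Eosinophil markers had a median of 0.67 (4 of 10 measured), with Alox5ap, of leukotriene synthesis, at 0.97, the cytokine receptor chains Csf2rb2 and Csf2rb at 0.84 and 0.27, and the granule protein Prg2 at 0.49. Airway club and goblet cell markers had a median of 0.36 (9 of 17 measured) and pointed both ways. On all arrays, 2 genes were higher and 2 lower by 1.5-fold or more, beside 106 and 93 of all 9153 named genes. Slc26a4 averaged 4.24 and the mucosal peptide Tff2 1.36, while the club cell enzymes Cyp2f2 and Cyp4b1 averaged -1.29 and -0.99. Alveolar type 2 markers had a median of -0.06 (4 of 8 measured), with the surfactant proteins Sftpc at 0.07 and Sftpb at -0.88, the lipid transporter Abca3 at 0.07 and the protease Napsa at -0.18. In none of these lists did a gene pass the test by probe. In bulk lung, more cells of a type and more RNA per cell cannot be told apart, and no cell source of Chil3 or Chil1 was measured.

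**Figure D5:**
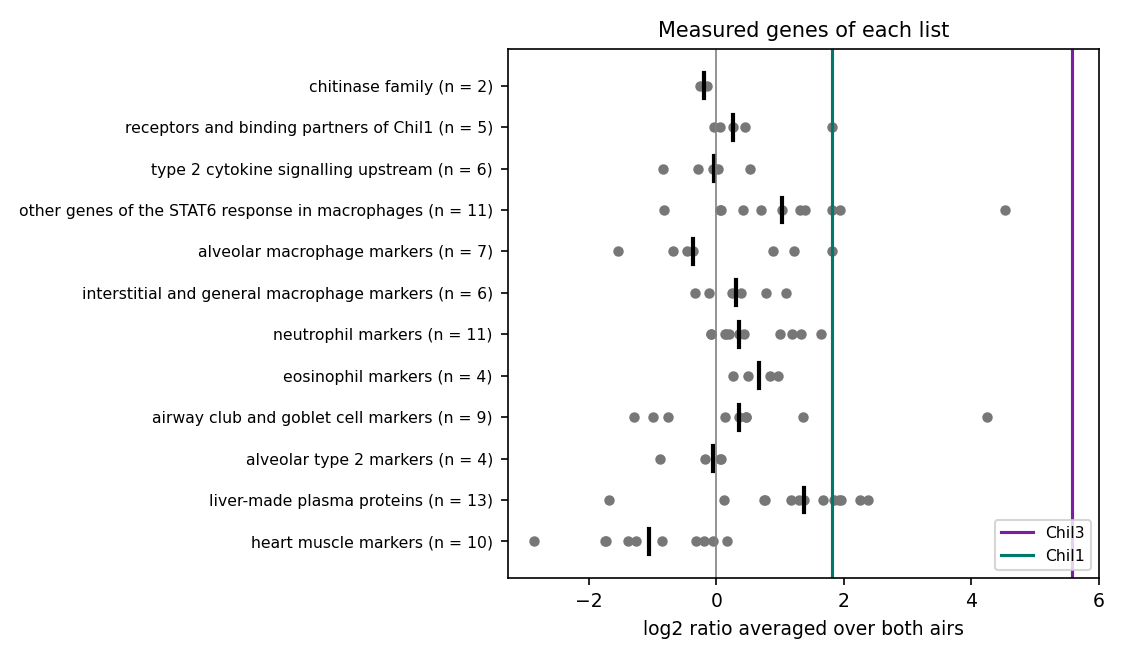
Log2 ratio averaged over both airs for each measured gene (points) of each list, with the list's median as a bar and lines at Chil3 (5.58) and Chil1 (1.81). No gene of any list reaches Chil3, and the STAT6 response list has a median of 1.03.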

How the data were processed

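Dual-colour arrays measured RNA of challenged lung against a control pool, 2 arrays in UCP air and 2 in particle-free air. Per the labels' protocols, the RNA was that of single organs, 20 µg of it went into each indirect labelling with Cy3 or Cy5, and the pool held 6 animals. The deposited values are log2 ratios. The scanner, the software and the normalization, as well as scale, centring and direction of the values, are not stated in the sources used here. They were worked out from the values: each array's ratios carry 1 constant (0.55 and 0.28 in UCP air, -0.05 and 0.56 in particle-free air), read from the commonest value, where the channel ratio is 1. The capped ratios are positive on Cy5 arrays and negative on Cy3 arrays, so all arrays run the same way. The overall sign stays likely only. Array medians were -0.02 and 0.02 in UCP air and -0.01 and -0.07 in particle-free air. A pool is only 1 control sample, so that a test of its ratios against 0 does not contain the spread among control animals. Brightness was not used here and dim probes were not filtered, and the number of arrays limits precision.

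Of 20205 probes, 13852 had 1 gene symbol, 0 several and 6353 none in the platform annotation, and 13849 symbols were updated through the Entrez identifier. Probes measured on every array (18160) entered limma 3.58.1 under R 4.3.3, with a coefficient for each air, 2 residual and 2.32 prior degrees of freedom (eBayes). Two-sided p-values were adjusted over all probes (Benjamini-Hochberg), and 0.05 was the threshold. The fit was also run on simulated data with independent normal errors, without capped values, array constants or a shared control pool. That run checks the code and does not bear on whether the Chil3 call holds. In gene lists a gene is the mean of its probes. Values named beside the members followed a rule: all measured family and Chil1 partner genes, the 4 largest absolute averages of each other list, and the 5 nearest genes by Euclidean distance. Marco, Mpo, Elane and S100a9 (as defining markers) and Ctsk were named after their values were seen. So were Ckm, Actc1, Fga, Fgg, Apoa1, Apoa2, C1qb, Klf4, Cdh1, Socs1, Ltf, Cebpe, Mmp9 and Prtn3. The members and lists were chosen with earlier results of these data known. Promoters were aligned with Biopython 1.88. Alternatives tried were centring, scaling, averaging probes, keeping probes with missing values, robust eBayes, a replicate block, leaving out each array, fitting an air alone and removing the array constant.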

Additional observations from a re-analysis of the deposited data

How the results depend on the processing

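The log2 ratios of Chil3 and Chil1 kept their sign in all alternatives run, for each air, for the average and for the difference between airs. The averaged Chil3 ratio was 5.66 with arrays centred and scaled, 5.58 with the replicate block and 5.58 with 1 mean value an air, each without the call. When an array was left out it was 5.55 to 5.61, and without array 2 of UCP air the call did not hold either. Over all alternatives the limma adjusted p ran from 9.76e-05, with the array constant removed, to 0.317, with 1 mean value an air. Chil3 gained a call in particle-free air with probes of a gene averaged (5.38) or probes with a missing value kept (5.38), and in UCP air with probes of a gene averaged (5.78). With the array constant removed, which undoes the deposited centring and moves the median averaged ratio of all probes to -0.36 against -0.03 as deposited, it passed in UCP air (5.36) and in particle-free air (5.12). Of 12 alternatives for each air, Chil3 thus gained a call in 2 in UCP air and in 3 in particle-free air, and in none of the others. Chil1 passed in none (averaged effect: adjusted p from 0.0552 to 0.507). The number of probes called in the averaged effect was 1, against 2 with scaling, 9 genes with probes averaged, 0 with the replicate block, 0 with 1 mean value an air, 162 with the constant removed and 0 to 34 when an array was left out (34 without array 1 of UCP air, 0 without its array 2, and 22 and 9 without array 1 and array 2 of particle-free air). The replicate number also marks the dye. Same-numbered arrays shared little, with a correlation of their deviations of 0.05 (Pearson) and 0.12 (Spearman) over probes, so the paired fit is given only here and for the call on Chil3. Probes at least 1.5-fold higher on all arrays numbered 206, against 62 at 2-fold, 58 with the constant removed and 295 to 330 on the other arrays when 1 was left out. The excess of Chil3 over Chil1 stayed between 3.62 and 3.96, and its difference between airs was 1.59 with scaling and 0.705 to 0.998 when an array was left out. In all these settings an array left without its partner is assumed to vary like the others.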

Other observations

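The deposited ratios appear to have been rounded to 3 decimals before the logarithm was taken. With each array's constant removed, the 707 and 302 ratios of Cy5 over Cy3 under 0.3 in UCP air, and the 385 and 238 in particle-free air, were all whole steps of 0.001 within 0.0011 on the log2 scale. Chil3 shows how this limits a strongly changed gene on the dye-swapped arrays, where challenged lung is in the denominator. Its Cy5 over Cy3 ratio was 0.023 on array 2 of UCP air and 0.037 on array 2 of particle-free air, and 1 rounding step there spans 0.063 and 0.039 on the log2 scale. On the arrays with challenged lung in Cy5 the ratios were 38.9 in UCP air and 45.0 in particle-free air, and rounding has no visible effect.

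In each air both genes were higher on the array with challenged lung in Cy5 than on the one with Cy3. The difference was 0.11 in UCP air and 0.13 in particle-free air for Chil3, and 0.15 in UCP air and 0.42 in particle-free air for Chil1. With the constant removed the order turned in UCP air for both genes, with Chil3 at 5.28 and 5.44 and Chil1 at 1.10 and 1.23 on arrays 1 and 2, so the sign of this dye difference rests on the constants there. In particle-free air it kept its sign and grew, with Chil3 at 5.49 and 4.76 and Chil1 at 2.29 and 1.27 on arrays 1 and 2.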
